A study of Mus musculus with 15 samples.

Results

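The subcortical maternal complex (SCMC) was followed through 7 genes, Nlrp5, Ooep, Tle6, Khdc3, Padi6, Zbed3 and Nlrp2, chosen by symbol among the 55401 gene identifiers of the oocyte count files. All 7 were found, each under 1 Ensembl identifier, and all 7 passed the filter on low counts that left 21009 genes. The libraries were made from pools of 6 Kunming mouse oocytes with SMART-Seq2, a full-length method that starts from poly(A) RNA and relies on PCR to obtain enough cDNA. There were 15 libraries in 5 groups of 3. The Invivo group (IVV) held germinal vesicle oocytes from follicles grown in vivo. The C_10d group (IVG) and the C_6d group held oocytes of preantral follicles grown in vitro for 10 and 6 days without neurotrophin-4 (NT-4), a ligand of the TRKB receptor, and the NT_10d (IVG-NT) and NT_6d groups held those grown with it for the same times. The design text gives mice of 12 to 14 days for the series. The methods name ovaries of 2-week-old and 6-week-old mice beside the puncture of antral follicles for in vivo oocytes, without tying an age to these libraries. The labels number the Invivo libraries 2, 3 and 4 and the others 1, 2 and 3, and nothing in them ties a library to single animals. The study's methods take the libraries of a group from 3 replicated experiments, without saying which libraries share one.

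The SCMC is an assembly of maternal proteins that gathers under the cortex of the growing oocyte and persists in the early embryo. Its transcripts accumulate while the oocyte grows, and mouse embryos of mothers that lack core members can arrest in early cleavage. Nlrp5 (also called Mater) is a large scaffold of the NLR family, Ooep (Floped) and Khdc3 (Filia) carry KH domains, and Tle6 is a Groucho-like protein that bridges the core. Padi6, a member of the peptidylarginine deiminase family, is needed for the cytoplasmic lattices of the oocyte. Zbed3 binds axin and takes part in the placement of the complex, and Nlrp2 is a further NLR protein found with it.

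In GRCm38 the genes lay at chr7:23385889-23441922 (Nlrp5, plus strand), chr9:78376109-78378725 (Ooep, minus), chr10:81590904-81601073 (Tle6, minus), chr9:73101836-73104438 (Khdc3, plus), chr4:140727355-140742643 (Padi6, minus), chr13:95323612-95337841 (Zbed3, plus) and chr7:5298547-5351035 (Nlrp2, minus). All are annotated as protein coding, and the length used for each was the union of its exons, from 2050 bases for Khdc3 to 4847 for Nlrp5. Exons of Khdc3 share 790 bases with Gm20509 on the same strand, which had at most 19 counts, in 1 library. Exons of Nlrp2 share 105 bases with Gm18757 on the opposite strand, which had 0 to 404 counts, up to 24.9% of those of Nlrp2, and the protocol does not mark strand.

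Promoters of all 7 genes were matched in RefSeq (GRCm38.p6), as windows of 250 bases before to 50 after the start. The window nearest the gene's annotated start was taken where RefSeq gives several. That of Khdc3 begins inside the GENCODE gene, since the 2 annotations place its start differently. Windows were searched for CANNTG, the E-box recognized by basic helix-loop-helix factors such as FIGLA, which reads the same on both strands. It was present in 6 of the 7, with 2 in Nlrp5, 1 in Ooep, 3 in Tle6, 5 in Khdc3 (a pair of them overlapping), 2 in Padi6 and 3 in Zbed3, and in 72.3% of all 32851 windows of this length. The window of Nlrp2 held none. The promoters of 6 genes are shown, those called in some comparison below (Padi6, Zbed3, Nlrp2 and, in other settings, Nlrp5, Khdc3 and Ooep), 5′ to 3′ on the strand of the gene, with each E-box in capitals, at chr7:23385639-23385938 (Nlrp5), chr9:78378539-78378838 (Ooep), chr9:73102148-73102447 (Khdc3), chr4:140742594-140742893 (Padi6), chr13:95323355-95323654 (Zbed3) and chr7:5350986-5351285 (Nlrp2).
Nlrp5: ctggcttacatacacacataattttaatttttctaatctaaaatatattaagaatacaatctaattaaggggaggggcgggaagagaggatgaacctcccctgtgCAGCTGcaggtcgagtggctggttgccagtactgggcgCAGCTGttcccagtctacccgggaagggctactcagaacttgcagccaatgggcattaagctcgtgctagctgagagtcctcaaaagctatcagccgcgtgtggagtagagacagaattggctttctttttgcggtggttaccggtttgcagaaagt
Ooep: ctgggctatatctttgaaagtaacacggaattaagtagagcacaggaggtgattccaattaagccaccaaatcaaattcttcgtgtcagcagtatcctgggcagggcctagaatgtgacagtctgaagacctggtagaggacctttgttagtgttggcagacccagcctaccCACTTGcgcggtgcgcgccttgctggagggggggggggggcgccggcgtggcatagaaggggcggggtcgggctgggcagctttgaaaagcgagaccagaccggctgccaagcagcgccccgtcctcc
Khdc3: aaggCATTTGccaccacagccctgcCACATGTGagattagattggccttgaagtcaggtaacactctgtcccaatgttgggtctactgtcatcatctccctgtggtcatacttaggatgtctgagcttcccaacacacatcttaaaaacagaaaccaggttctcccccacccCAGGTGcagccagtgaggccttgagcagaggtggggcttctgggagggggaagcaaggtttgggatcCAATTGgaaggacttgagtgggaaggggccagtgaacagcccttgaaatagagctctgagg
Padi6: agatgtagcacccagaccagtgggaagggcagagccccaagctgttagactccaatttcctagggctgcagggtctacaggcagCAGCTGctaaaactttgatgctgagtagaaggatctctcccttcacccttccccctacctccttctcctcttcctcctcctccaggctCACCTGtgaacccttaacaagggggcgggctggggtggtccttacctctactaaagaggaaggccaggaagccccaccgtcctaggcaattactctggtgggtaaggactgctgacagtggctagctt
Zbed3: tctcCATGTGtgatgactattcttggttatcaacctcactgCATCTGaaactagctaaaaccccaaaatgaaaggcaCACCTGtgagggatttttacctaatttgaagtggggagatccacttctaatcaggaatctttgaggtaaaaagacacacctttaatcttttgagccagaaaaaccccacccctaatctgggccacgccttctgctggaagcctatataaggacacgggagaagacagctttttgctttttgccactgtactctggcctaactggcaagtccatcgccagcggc
Nlrp2: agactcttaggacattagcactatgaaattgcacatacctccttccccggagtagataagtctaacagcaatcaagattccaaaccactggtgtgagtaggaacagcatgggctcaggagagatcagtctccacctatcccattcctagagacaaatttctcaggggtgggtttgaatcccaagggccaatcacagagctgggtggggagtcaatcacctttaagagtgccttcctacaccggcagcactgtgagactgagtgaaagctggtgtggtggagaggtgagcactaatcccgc

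Total counts were 5.95 and 7.13 M in NT_6d replicates 1 and 2 and 19.0 to 55.6 M in the other 13 libraries, and 10991 to 22966 genes had a count. An annotated rRNA gene took over 5% of the counts in 9 libraries (rRNA-rich: replicates 1 and 2 of the cultured groups, and Invivo replicate 3) and under 1% in 6 (rRNA-poor: replicate 3 of the cultured groups, and Invivo replicates 2 and 4), so both kinds were present in every group. The 10 oocyte markers had counts in every library, with summed levels of 9989 to 18062 CPM. The 10 granulosa cell markers summed to 48.4 to 378 CPM, the highest in C_10d replicate 2. Those with a count in every library numbered 9 in Invivo, 7 in C_10d, 8 in NT_10d, 6 in C_6d and 3 in NT_6d. Amh was at 0 in every C_10d, NT_10d and NT_6d library, and Amhr2 in every NT_6d library. The 7 theca and stroma markers summed to at most 32.7 CPM and the 4 immune markers to at most 49.2 CPM, in NT_6d replicates 2 and 1. Their part in the results below was not tested. Levels are TMM-normalized CPM, counts scaled to a common library size (normalized CPM), and, where genes are compared, normalized CPM per kilobase of exon.

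The SCMC genes were among the most abundant transcripts. Per kilobase, the median rank over the 15 libraries among the 21009 genes was 8 for Zbed3, 15 for Padi6, 76 for Ooep, 167 for Nlrp5, 178 for Tle6, 276 for Khdc3 and 1138 for Nlrp2. Raw counts were at least 472 for every member in every library. Counting error was thus small beside the spread between libraries, although PCR copies carry no molecular identifier.

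Zbed3 had the highest level per kilobase in 14 of 15 libraries, the exception being C_6d replicate 1, where Padi6 did. The order below it depended on the kind of library. In the rRNA-poor libraries Ooep was second in all 6, at 1439 ± 400 CPM per kilobase (SD, n = 6), above Padi6 at 674 ± 169, Tle6 at 376 ± 84.5 and Khdc3 at 329 ± 107. Nlrp5 was sixth at 108 ± 40.8 and Nlrp2 last at 45.9 ± 11.1. In the rRNA-rich libraries Padi6 was first or second in all 9, at 1842 ± 714 (SD, n = 9), and Nlrp5 at 336 ± 131 and Ooep at 294 ± 81.3 followed. Tle6 at 180 ± 40.8, Nlrp2 at 114 ± 50.4 and Khdc3 at 88.0 ± 74.2 were the lowest. These SDs are over libraries of all groups and leave out that genes share a library. Within 1 SD, Tle6 and Khdc3 overlapped in the rRNA-poor libraries, and Nlrp5 and Ooep, and Nlrp2 and Khdc3, in the rRNA-rich ones. Within single rRNA-rich libraries, Ooep stood at 0.609 to 0.895 times Nlrp5 outside NT_6d. In NT_6d replicates 1 and 2 it stood at 1.69 and 2.30 times.

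The kind of library separated several members without overlap. In normalized CPM, rRNA-rich libraries held 808 to 2793 for Nlrp5 and rRNA-poor libraries 243 to 695. Ooep ranged from 403 to 965 and from 1562 to 3891, and Tle6 from 385 to 738 and from 837 to 1545. These 3 of the 7 did not overlap, against 13.2% of all genes tested. Khdc3 (40.4 to 435 against 404 to 1074), Padi6 (2092 to 8122 against 1151 to 2200), Zbed3 (2290 to 15912 against 4046 to 5503) and Nlrp2 (85.3 to 581 against 103 to 198) overlapped. Each overlap came from NT_6d libraries, as seen once the values were known. In the other groups Khdc3 held 40.4 to 265 against 404 to 679 and Padi6 3901 to 8122 against 1267 to 2200. Zbed3 held 5218 to 15912 against 4046 to 4877 there, and Nlrp2 405 to 581 against 123 to 198. The share of all genes that split in those groups was not computed. Nlrp5, Padi6, Zbed3 and Nlrp2 thus had the higher mean in the rRNA-rich libraries, and Ooep, Tle6 and Khdc3 in the rRNA-poor ones.

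Ratios within a library do not depend on its scaling. Padi6 stood at 3.96 to 7.34 times Nlrp5 per kilobase in the rRNA-rich libraries and at 4.78 to 9.08 times in the rRNA-poor ones. Ooep stood at 0.609 to 2.30 times Nlrp5 in the rRNA-rich libraries and at 10.4 to 26.3 times in the rRNA-poor ones, and Khdc3 at 0.0643 to 1.19 and 1.73 to 10.5 times. Khdc3 stood at 0.470 to 0.717 times Ooep in the 3 NT_6d libraries and at 0.105 to 0.367 times in the other 12, a split noticed in these values, with both kinds in each set. The ratio of Padi6 to Nlrp5 thus overlapped between the kinds, while those of Ooep and Khdc3 to Nlrp5 did not.

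**Figure D1:**
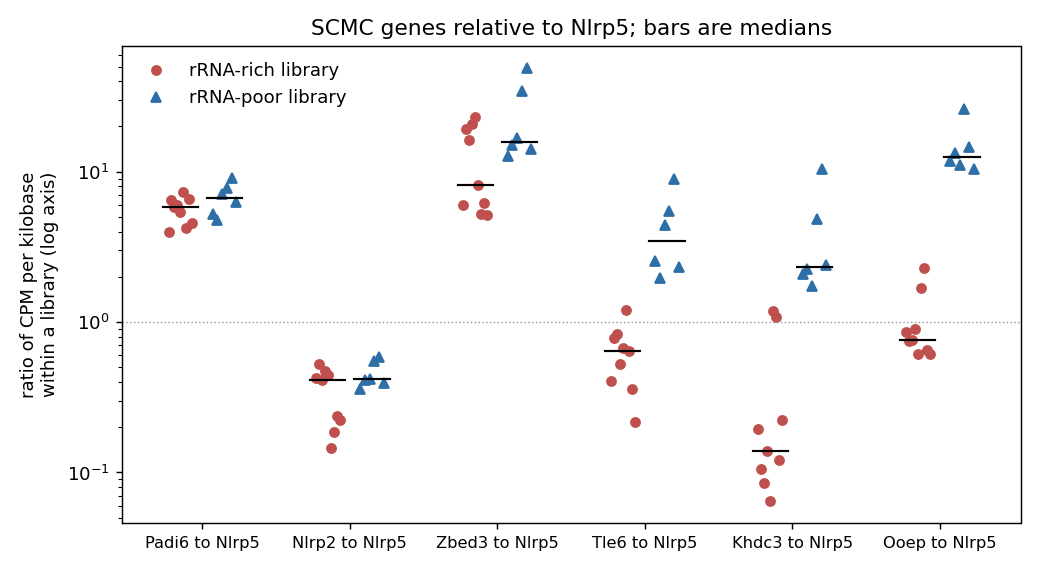
Ratio of each SCMC gene to Nlrp5 within each of 15 libraries, in normalized CPM per kilobase on a log axis, with bars at the median of 9 rRNA-rich (circles) and 6 rRNA-poor (triangles) libraries. The kinds overlap for Padi6, Nlrp2 and Zbed3 and do not overlap for Tle6, Khdc3 and Ooep.

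Groups were compared with edgeR's quasi-likelihood test in 1 fit of the 5 group means. A gene was called by the DEG rule of the study's methods, a log2 fold change beyond 1 with an unadjusted P under 0.05. No Benjamini-Hochberg adjusted p was under 0.05 in that fit, for a member or any other gene (0% of 21009 in each of the 7 contrasts), and genes with an unadjusted P under 0.05 numbered 261 to 2661. DESeq2's Wald test gave 51 to 715 genes with an adjusted p under 0.05, and no member among them. Because the kind of library runs across the groups, the members' contrasts were also fitted with kind as a covariate and in the rRNA-rich libraries alone. The other gene lists were tested in the fit of group means only. Several of the 6 comparisons share libraries.

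For growth in vitro to day 10, 0 of 7 members were called in C_10d against Invivo (2.76% of all genes) and 1 of 7 in NT_10d against Invivo (3.29%). Zbed3 stood at 4046, 5218 and 4575 normalized CPM in Invivo replicates 2, 3 and 4. It stood at 12406, 10488 and 4238 in C_10d replicates 1, 2 and 3 and at 14873, 15912 and 4877 in NT_10d replicates 1, 2 and 3. The rRNA-rich in vitro libraries were high and the rRNA-poor ones were near the Invivo level. The log2 fold change was 1.37 (SE 0.55, 95% interval 0.20 to 2.53, unadjusted P = 0.0242, adjusted p = 1) in NT_10d and 0.97 (SE 0.55, -0.18 to 2.13, unadjusted P = 0.0937) in C_10d. The call in NT_10d was lost without Invivo replicate 2 (log2 1.28), NT_10d replicate 1 (1.12) or NT_10d replicate 2 (1.06). In the rRNA-rich libraries alone, with a single Invivo library, the values were 1.15 for C_10d and 1.59 for NT_10d (adjusted p = 1 for both), beside 1.68% and 1.53% of all genes called.

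Ooep and Khdc3 had the lowest fold changes against Invivo. Ooep stood at 3624, 716 and 3891 in Invivo replicates 2, 3 and 4, at 464, 470 and 2701 in C_10d and at 614, 403 and 3592 in NT_10d. Its log2 fold change was -1.18 (95% interval -3.18 to 0.82) in C_10d and -0.84 (-2.82 to 1.15) in NT_10d, and neither was called. The Invivo group has 2 rRNA-poor libraries and the in vitro groups 1 each, and with kind as a covariate the values were -0.62 and -0.38. Khdc3 had -1.44 (-3.63 to 0.76) in C_10d and -0.86 (-3.03 to 1.31) in NT_10d. With the covariate, Khdc3 was called in C_10d (log2 -1.06, SE 0.46, unadjusted P = 0.0360, adjusted p = 1), the 1 of 7 there (3.83% of all genes), and Zbed3 again in NT_10d (1.12, 4.31% of all genes). Without C_10d replicate 3, the rRNA-poor library of that group, Ooep (-2.55), Khdc3 (-3.05) and Zbed3 (1.31) were called against Invivo, beside 4.56% of all genes. Without NT_10d replicate 3, Ooep (-2.43), Khdc3 (-2.83) and Zbed3 (1.74) were, beside 4.77%. Nlrp5, Tle6, Padi6 and Nlrp2 had log2 fold changes between -0.13 and 0.57 against Invivo, each smaller than its standard error. With the covariate they had between -0.67 and 0.63. Nlrp5 then had -0.67 (SE 0.26, unadjusted P = 0.0210, adjusted p = 1) in NT_10d, against 0.05 in the fit of group means, and Tle6 0.63 (SE 0.28, unadjusted P = 0.0402, adjusted p = 1) in C_10d, and neither passed a log2 of 1. In a count made after these values were seen, libraries were compared with Invivo within each kind, with a single rRNA-rich Invivo library. In C_10d Nlrp5, Ooep, Khdc3 and Nlrp2 were lower in both kinds, as were 17.4% of all genes. Tle6 and Padi6 were higher, as were 16.2%. In NT_10d Nlrp5, Ooep and Nlrp2 were lower in both kinds (17.8% of all genes) and Zbed3 higher (15.9%). The median over the 7 was 0.22 in C_10d and 0.05 in NT_10d, beside -0.20 and -0.19 over all genes.

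**Figure D2:**
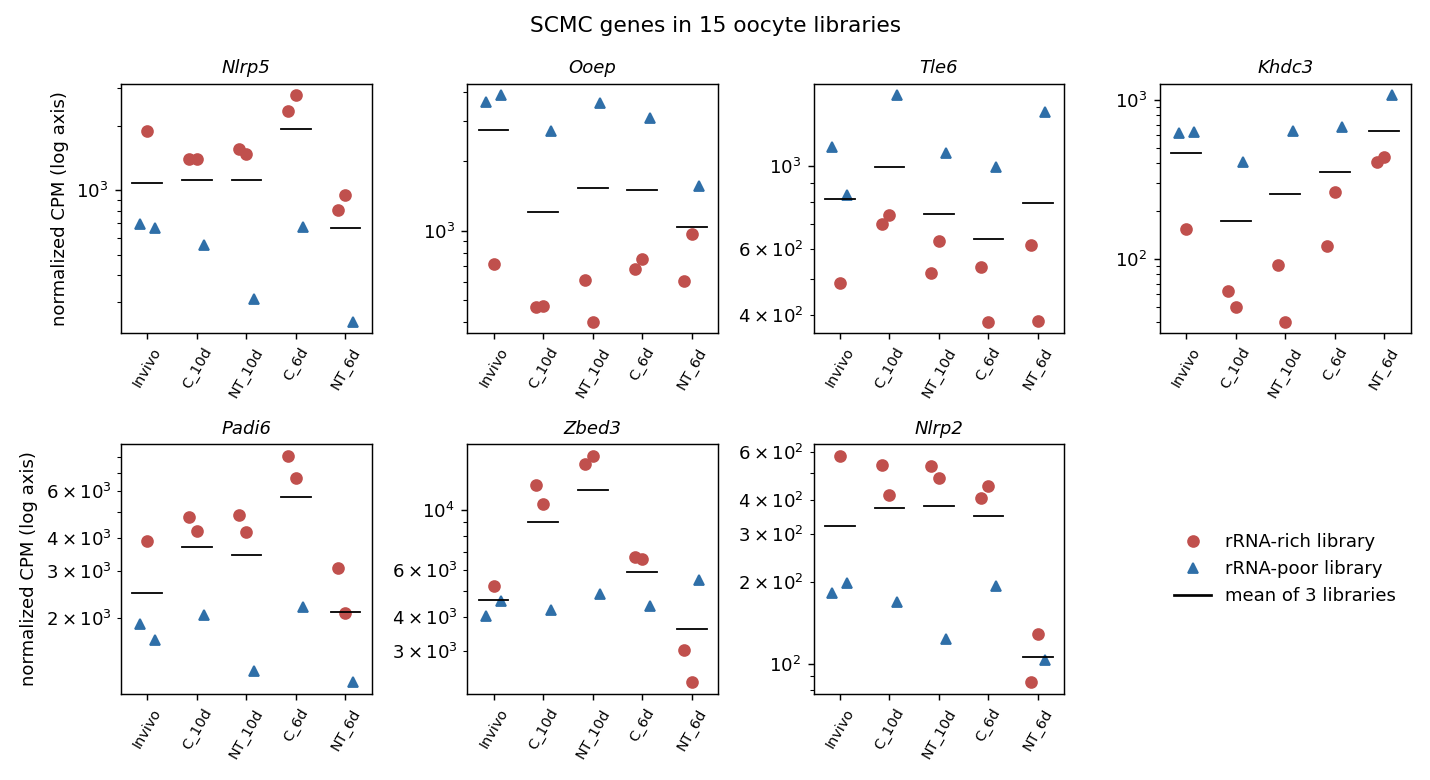
Normalized CPM of the 7 SCMC genes in each library on log axes, with circles for rRNA-rich and triangles for rRNA-poor libraries and a bar at the mean of the 3 libraries of a group. Triangles lie below all circles for Nlrp5 and above them for Ooep and Tle6, and the circles of Zbed3 at day 10 lie between 10488 and 15912.

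For NT-4 at day 10, 0 of 7 members were called in NT_10d against C_10d (1.24% of all genes), and 0 with the covariate (2.03%). The log2 fold changes ran from -0.41 for Tle6 to 0.58 for Khdc3, with a median of 0.02 beside 0.01 over all genes. The 95% intervals were wide, for example -1.58 to 1.58 for Nlrp5 and -0.75 to 1.54 for Zbed3, so differences of 2-fold lay within the intervals of this fit. With the covariate the standard errors were smaller, 0.25 for Nlrp5 (log2 -0.19) and 0.41 for Zbed3 (0.38). In the rRNA-rich libraries alone the values ran from -0.31 for Tle6 to 0.43 for Zbed3, and none was called. Tle6 was lower and Zbed3 higher in NT_10d than in C_10d in all 3 pairs of same-numbered replicates, as were 10.7% and 10.4% of all genes. That pairing was assumed. With the replicate block Tle6 had -0.38 (SE 0.31) and Zbed3 0.39 (SE 0.43).

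For NT-4 at day 6, 2 of 7 members, Padi6 and Nlrp2, were called lower in NT_6d than in C_6d, in a comparison where 11.6% of all genes were called. Nlrp2 stood at 405, 450 and 192 in C_6d replicates 1, 2 and 3 and at 85.3, 129 and 103 in NT_6d. Its log2 fold change was -1.72 (SE 0.72, 95% interval -3.24 to -0.21, unadjusted P = 0.0280, adjusted p = 0.394). Padi6 stood at 8122, 6687 and 2200 in C_6d and at 3098, 2092 and 1151 in NT_6d, with an overlap of 1 library. Its log2 fold change was -1.42 (SE 0.65, -2.79 to -0.05, unadjusted P = 0.0427, adjusted p = 0.417). Nlrp5, the scaffold, stood at 2359, 2793 and 671 in C_6d and at 808, 951 and 243 in NT_6d, with -1.54 (SE 0.76, -3.15 to 0.07, unadjusted P = 0.0599), and was not called. With no filter on low counts it was (-1.54, unadjusted P = 0.0251, adjusted p = 0.314), beside 11% of all genes.

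In a count made after these values were seen, the 3 genes were lower in every NT_6d library than in every C_6d library of the same kind, for both kinds, as were 17.0% of all genes. Khdc3 was higher in the same way, as were 2.3%. With kind as a covariate 4 of 7 members were called (15.8% of all genes): Nlrp5 (log2 -1.52, SE 0.25, adjusted p = 0.189), Padi6 (-1.33, SE 0.24, adjusted p = 0.189), Nlrp2 (-1.52, SE 0.40, adjusted p = 0.260) and, in the other direction, Khdc3 (1.02, SE 0.46, adjusted p = 0.300). In the rRNA-rich libraries alone, 2 against 2, the adjusted p was 0.0471 for Nlrp5 (-1.63), Padi6 (-1.60) and Zbed3 (-1.41) and 0.0711 for Nlrp2 (-2.07). In that fit 0.348% of 25589 genes had an adjusted p under 0.05, and 18.1% were called by the DEG rule. The NT_6d libraries of that test are the pair with the lowest totals, 5.95 and 7.13 M. Zbed3 went the other way in the rRNA-poor pair, at 5503 in NT_6d and 4383 in C_6d. Without the low pair NT_6d is 1 rRNA-poor library set against both kinds in C_6d, so kind and group cannot be told apart there. With the low pair left out, the log2 fold change of Nlrp5 was -2.89. The part of depth in these values was not tested.

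Single libraries decided the calls at day 6 as well. The call of Nlrp2 was lost without NT_6d replicate 1 (log2 -1.55) or 3 (-1.71) and without C_6d replicate 1 (-1.61) or 2 (-1.48). That of Padi6 was lost without NT_6d replicate 2 (-1.38) or 3 (-1.14) and without C_6d replicate 1 (-1.08) or 2 (-1.27), while Nlrp5 was called without C_6d replicate 3 (-1.95). The share of all genes called was 7.47% to 11.2% in these fits except without NT_6d replicate 3, the rRNA-poor library. There it was 29.1%, and 10.3% had an adjusted p under 0.05, with 0 of 7 members called. The sign of the 3 genes was the same in each of these fits. Ooep, Tle6, Khdc3 and Zbed3 were not called in the fit of group means, with log2 fold changes of -0.53, 0.32, 0.85 and -0.71. The median over the 7 was -0.71, beside -0.27 over all genes.

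**Figure D3:**
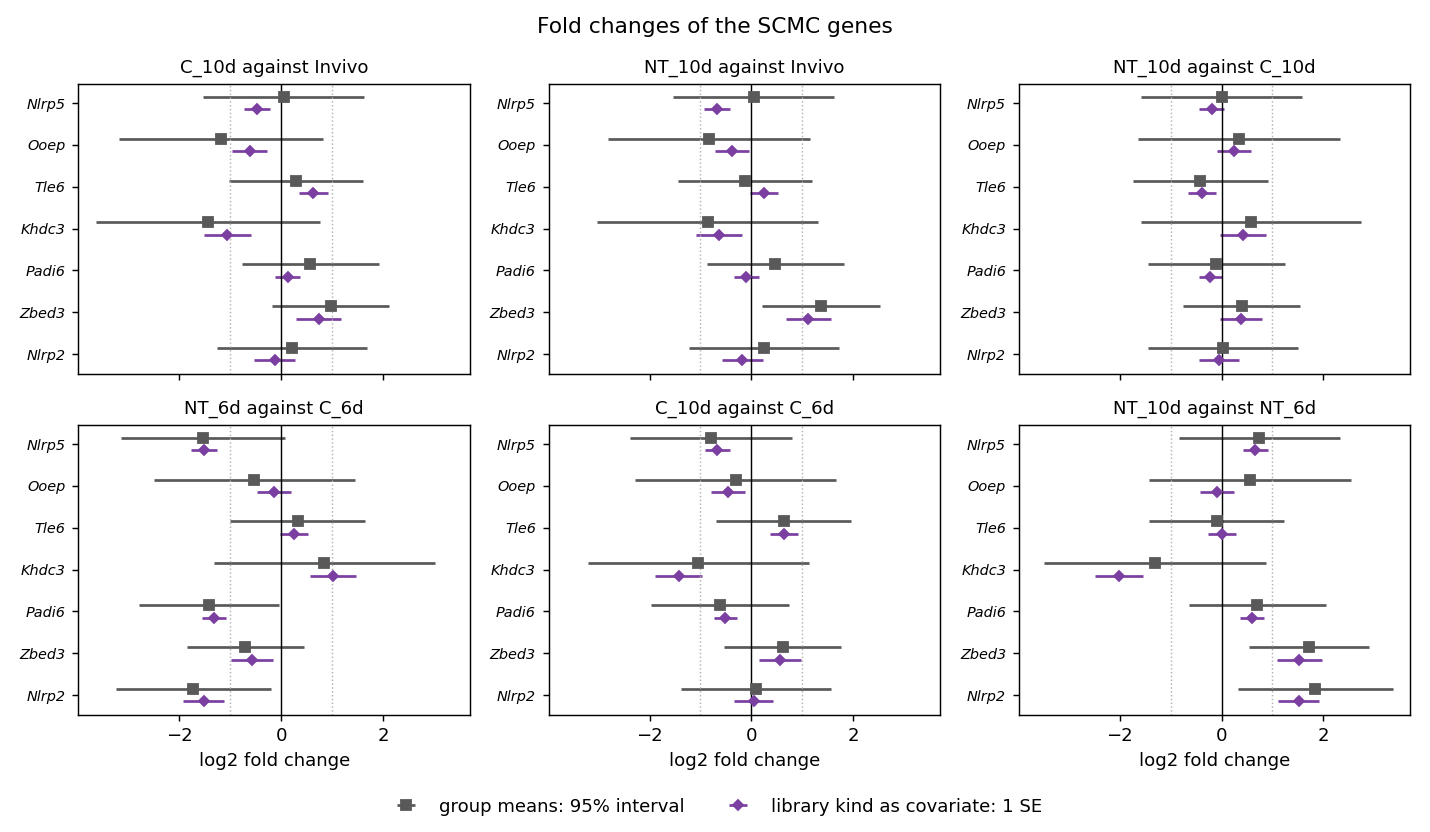
Log2 fold changes of the 7 SCMC genes in 6 comparisons, from the fit of group means (squares with 95% intervals) and with library kind as a covariate (diamonds with 1 standard error), with dotted lines at -1 and 1. The squares whose intervals leave out 0 are Zbed3 in NT_10d against Invivo, Padi6 and Nlrp2 in NT_6d against C_6d, and Zbed3 and Nlrp2 in NT_10d against NT_6d.

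For growth from day 6 to day 10 without NT-4, 0 of 7 members were called in C_10d against C_6d (2.9% of all genes). Khdc3 had a log2 fold change of -1.04 (SE 1.03, 95% interval -3.22 to 1.14). It stood at 120, 265 and 679 in C_6d replicates 1, 2 and 3 and at 62.7, 49.96 and 404 in C_10d. It was lower on day 10 in both kinds, as were Nlrp5, Ooep and Padi6 and 10.0% of all genes. Tle6 was higher in the same way, as were 13.4%. With kind as a covariate Khdc3 was the 1 of 7 called (-1.43, SE 0.46, unadjusted P = 0.00783, adjusted p = 0.965, with 4.86% of all genes called). The replicate numbers were assumed to pair these libraries. Replicate 3 is the rRNA-poor library of each group, so a replicate block also holds library kind. With that block Khdc3 was also called (-1.43, unadjusted P = 0.0196, adjusted p = 1), beside 2.11% of all genes. In the rRNA-rich libraries alone it had -1.80 (adjusted p = 1). Without C_10d replicate 3 it had -2.66 and was called, beside 2.33% of all genes. In all 3 pairs of replicates Nlrp5, Ooep, Khdc3 and Padi6 were lower on day 10, as were 11.8% of all genes, and Tle6 was higher, as were 15.3%. With the replicate block Nlrp5 had -0.66 (SE 0.28), Padi6 -0.50 (SE 0.22), Ooep -0.46 (SE 0.38) and Tle6 0.65 (SE 0.31), none beyond a log2 of 1 and each with an adjusted p of 1. The other 6 had between -0.80 for Nlrp5 and 0.64 for Tle6, with a median over the 7 of -0.31 beside 0.05 over all genes.

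With NT-4, 2 of 7 members were called higher in NT_10d than in NT_6d (12.7% of all genes). Zbed3 stood at 3015, 2290 and 5503 in NT_6d and at 14873, 15912 and 4877 in NT_10d, with a log2 fold change of 1.72 (SE 0.56, unadjusted P = 0.00669, adjusted p = 0.357). Only the rRNA-rich libraries differed in that direction, and in them alone the value was 2.60 (adjusted p = 0.00853, with 0.868% of genes under 0.05). Nlrp2 stood at 531, 482 and 123 in NT_10d and had 1.84 (SE 0.72, unadjusted P = 0.0204, adjusted p = 0.357). Khdc3 stood at 405, 435 and 1074 in NT_6d and at 91.4, 40.4 and 641 in NT_10d. It was lower on day 10 in both kinds, as were 2.82% of all genes. Its log2 fold change was -1.31 (95% interval -3.50 to 0.88), and -2.02 (SE 0.48, adjusted p = 0.220) with the covariate, where it was called with Zbed3 (1.53) and Nlrp2 (1.51), 3 of 7 against 16.9% of all genes. Nlrp5, Padi6 and Nlrp2 were higher on day 10 in both kinds, as were 21.4% of all genes. The NT_6d libraries of 5.95 and 7.13 M enter these values too, and their part was not tested. The call of Nlrp2 was lost without NT_10d replicate 1 (1.47) or 2 (1.59) or NT_6d replicate 1 (1.64), that of Zbed3 without NT_6d replicate 2 (1.40), and Khdc3 was called without NT_10d replicate 3 (-3.27), with 7.1% to 11.2% of all genes called in these fits. The median over the 7 was 0.70, beside 0.40 over all genes.

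The difference between the NT-4 effects at day 10 and day 6 was tested in the same fit, and 0 of 7 members were called (6.37% of all genes). The values were 1.54 for Nlrp5 (SE 1.06), 1.32 for Padi6 (SE 0.90), 1.10 for Zbed3 (SE 0.77) and 1.75 for Nlrp2 (SE 0.99, unadjusted P = 0.0969). Ooep had 0.87 (SE 1.32), Tle6 -0.74 (SE 0.89) and Khdc3 -0.27 (SE 1.44). The median over the 7 was 1.10, beside 0.33 over all genes. With kind as a covariate Nlrp5 (1.33), Padi6 (1.10) and Nlrp2 (1.47) were called, 3 of 7 against 8.96% of all genes, with an adjusted p of 0.522 each. In the rRNA-rich libraries alone Nlrp5 (1.75), Padi6 (1.61), Zbed3 (1.84) and Nlrp2 (2.17) were called, beside 11.8% of all genes, with adjusted p of 0.153 to 0.234. Without NT_10d replicate 3, Zbed3 (1.48) and Nlrp2 (2.17) were called, beside 6.65%.

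Of 6 genes whose products are reported with SCMC proteins in oocytes, Nlrp4f, Nlrp14, Uhrf1, Ube2d3, Cfl1 and Dnmt1, only Uhrf1, a hemimethylated DNA reader, was called in any contrast. It stood at 988, 563 and 412 normalized CPM in C_6d replicates 1, 2 and 3 and at 87.3, 25.4 and 161 in NT_6d. Its log2 fold change was -2.84 (SE 0.76, unadjusted P = 0.00161, adjusted p = 0.381). It was also called in NT_10d against NT_6d (2.54) and in the difference of NT-4 effects (2.14, unadjusted P = 0.0494). The shares of all genes called in these contrasts were 11.6%, 12.7% and 6.37%. All 6 had negative values in NT_6d against C_6d, with a median of -0.60 beside -0.27 over all genes. Nlrp14, an NLR protein of the oocyte, had the highest mean level per kilobase of the 6, at 528 CPM per kilobase. All but Ube2d3 had their highest value in a rRNA-rich library. Nlrp4f ranged from 1285 to 2814 normalized CPM there and from 313 to 626 in the rRNA-poor ones, and Dnmt1, the maintenance DNA methyltransferase, from 2526 to 4288 and from 584 to 1064.

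Of 16 relatives of the members by family, 15 had an identifier and passed the filter. In NT_6d against C_6d, 4 were called higher, Padi1, Padi3, Tle3 and Aes, none lower, beside 11.6% of all genes. The highest value of each lay in NT_6d replicate 2, a library of low depth. Tle3 stood at 566 normalized CPM in NT_6d replicate 2 and at no more than 8.7 in the other 14 libraries, and Padi3 at 52.9 there and at no more than 7.4 elsewhere. Padi1, Padi3 and Tle3 were called lower in NT_10d against NT_6d and in the difference of NT-4 effects (12.7% and 6.37% of all genes). Padi3 and Tle3 were called lower in NT_10d against Invivo (3.29%). Padi3 was also called lower in NT_10d against C_10d (1.24%) and higher in C_10d against C_6d (2.9%). It was at 0 in every NT_10d and C_6d library, and Tle3 in every NT_10d library. Dppa5a, a KH-domain gene near Ooep and Khdc3, had the highest mean level per kilobase of the relatives, 736 CPM per kilobase. In normalized CPM it held 35.8 to 292 where rRNA was rich and 426 to 1238 where it was poor, a split of the same direction as that of Ooep.

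Of 7 factors that act upstream of oocyte genes, Figla, Nobox, Lhx8, Sohlh1, Sohlh2, Taf4b and Tbpl2, 1 was called in any contrast. Tbpl2, a TBP relative used by growing oocytes, was lower in NT_10d than in NT_6d (log2 -3.11, SE 1.14, unadjusted P = 0.0147, adjusted p = 0.357), where NT_6d replicate 2 stood at 195 normalized CPM and every other library at 28.9 or less. Nobox, a homeobox factor, was the most abundant of the 7 per kilobase, at 303 CPM per kilobase. Figla held 6.69 to 75.2 normalized CPM where rRNA was rich and 58.8 to 95.5 where it was poor.

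The genes most like the members were sought by Pearson correlation with the mean standardized log2 CPM of the 7, as a description over 15 libraries that share kind and depth. They were G3bp2 (0.96), Gm17201 (0.96), Rap2c (0.95), Serinc5 (0.95) and Pgbd5 (0.94). Each member is 1 of the 7 in that profile, so its own coefficient is partly built in. The members themselves had coefficients from -0.44 for Khdc3 to 0.76 for Nlrp2, so the mean profile stood for none of them closely. After the mean of each library kind was removed, Padi6 (0.93), Nlrp5 (0.91) and Nlrp2 (0.85) followed the mean profile, Zbed3 had 0.49, Ooep 0.11, Tle6 -0.07 and Khdc3 -0.49. The most alike genes were then Pds5a (0.97), Foxn3 (0.95), Hist1h4i (0.95), 1700116B05Rik (0.94) and Armc12 (0.94).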

How the data were processed

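RNA of 15 pools of 6 oocytes was measured. The authors aligned reads to mm10 with HISAT2 and deposited raw counts per Ensembl gene for each library; the counter and annotation release are not given in the sources used here. A combined table, whose 15 columns equal the library files, was not used. Symbols came from GENCODE vM21 (99.5% of identifiers). No library pair held identical counts.

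Counts were filtered with filterByExpr (minimum count 10), normalized by TMM and tested in R 4.3.3 with edgeR 4.0.16 (limma 3.58.1), 1 fit of group means over 15 libraries, with Benjamini-Hochberg adjustment over all genes per contrast. DESeq2 1.42.0 was an alternative. On simulated counts the fit was checked for recovery of known changes. The simulation gave every gene the same dispersion and held no library kinds, so it does not show recovery in these data. The study's methods take a group's libraries from replicated experiments; nothing ties libraries to animals, so P values measure the spread between libraries.

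Members, lists, the split at 5% rRNA and most alternatives were chosen with earlier results of these data known. All 7 members are named; of the other lists, those called and the most abundant, plus, chosen after their values were seen, genes that split by library kind. Same-numbered libraries deviated together in NT_10d against C_10d (correlations 0.37, 0.41 and 0.73) and C_10d against C_6d (0.23, 0.15 and 0.54). Replicates 1 and 2 crossed gave 0.27 and 0.37 in the first and 0.19 and 0.26 in the second. Replicate 3 is the rRNA-poor library of each cultured group, so these correlations cannot tell pairing from library kind. The numbers were taken to pair these libraries as an assumption. In the other 2 comparisons not every same-numbered correlation passed 0.1.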

Additional observations from a re-analysis of the deposited data

How the results depend on the processing

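The 7 contrasts were refitted under 25 other settings in all, each contrast under those that apply to it, and 15 of the settings leave out 1 library. The counts of members called moved with these. In C_10d against Invivo 0 of 7 became 1 with kind as a covariate and 1 in only the rRNA-rich libraries. With the covariate 3.83% of all genes were called in C_10d against Invivo. In NT_10d against Invivo 1 became 0 with DESeq2's test (3.01% of all genes) and 0 in a fit of only the 2 groups (4.1%). In NT_6d against C_6d 2 became 0 with DESeq2 size factors, 1 with totals without rRNA genes, 0 with DESeq2's test and 0 with only the 2 groups. It became 4 with kind as a covariate, 4 in only the rRNA-rich libraries and 3 with no filter on low counts. In NT_6d against C_6d, 12.1% of all genes were called with DESeq2 size factors, 11.2% with totals without rRNA genes and 14.1% with DESeq2's test. The share was 3.06% with only the 2 groups, 15.8% with the covariate, 18.1% in only the rRNA-rich libraries and 11% with no filter. In C_10d against C_6d 0 became 1 with kind as a covariate (4.86% of all genes). It became 1 too in only the rRNA-rich libraries (1.77%) and with the replicate block (2.11%). In NT_10d against NT_6d 2 became 1 with DESeq2 size factors, 1 with DESeq2's test and 0 with only the 2 groups. In NT_10d against NT_6d, 12.9% of all genes were called with DESeq2 size factors, 14.6% with DESeq2's test and 4.51% with only the 2 groups. For the difference of NT-4 effects 0 became 3 with kind as a covariate (8.96% of all genes). It became 4 in only the rRNA-rich libraries (11.8%) and 3 with the replicate block (4.11%). Leaving out the low pair, chosen after the totals were seen, leaves 1 rRNA-poor library in NT_6d, assumed to vary like the other groups. No counts of members called are given for that setting, and it says nothing of the low pair's part. The block gave 3 in NT_6d against C_6d (7.17% of all genes), 3 in NT_10d against NT_6d (8.23%) and 0 in NT_10d against C_10d (0.598%). With 1 library left out, the counts were 0 to 3 in C_10d against Invivo, where 0.843% to 4.56% of all genes were called. They were 0 to 3 in NT_10d against Invivo (0.999% to 4.77%) and 0 to 0 in NT_10d against C_10d (0.535% to 1.09%). In NT_6d against C_6d they were 0 to 3 (7.47% to 29.1%) and in C_10d against C_6d 0 to 1 (1.33% to 3.91%). In NT_10d against NT_6d they were 1 to 3 (7.1% to 30.8%), and for the difference of NT-4 effects 0 to 2 (4.81% to 21.1%). Counts over all genes with an adjusted p under 0.05 were 0 in the fit of group means, 881 in NT_6d against C_6d and 941 in NT_10d against NT_6d with no filter on low counts, and 89 and 222 there in only the rRNA-rich libraries. The cause was not tested.

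Of the 49 fold changes of members, 21 changed sign in at least 1 setting, all 21 among the 29 that were within 1 standard error of 0, and none among the 20 beyond it. With DESeq2 size factors, Nlrp5 in C_10d against Invivo became -0.15, Nlrp5 in NT_10d against Invivo became -0.20, Nlrp2 in NT_10d against C_10d became -0.017. With totals without rRNA genes, Nlrp5 in C_10d against Invivo became -0.12, Nlrp5 in NT_10d against Invivo became -0.14. With DESeq2's test, Nlrp5 in C_10d against Invivo became -0.15, Nlrp5 in NT_10d against Invivo became -0.20, Nlrp2 in NT_10d against C_10d became -0.017. With no filter on low counts, Nlrp2 in NT_10d against C_10d became -0.0098. With a fit of only the 2 groups, Nlrp2 in NT_10d against C_10d became -0.023. With kind as a covariate, Nlrp5 in C_10d against Invivo became -0.48, Nlrp2 in C_10d against Invivo became -0.13, Nlrp5 in NT_10d against Invivo became -0.67, Tle6 in NT_10d against Invivo became 0.25, Padi6 in NT_10d against Invivo became -0.097, Nlrp2 in NT_10d against Invivo became -0.18, Nlrp2 in NT_10d against C_10d became -0.047, Ooep in NT_10d against NT_6d became -0.089, Tle6 in NT_10d against NT_6d became 0.0087. With only rRNA-rich libraries, Nlrp5 in C_10d against Invivo became -0.41, Nlrp2 in C_10d against Invivo became -0.27, Nlrp5 in NT_10d against Invivo became -0.28, Tle6 in NT_10d against Invivo became 0.26, Nlrp2 in NT_10d against Invivo became -0.17, Nlrp5 in NT_10d against C_10d became 0.13, Padi6 in NT_10d against C_10d became 0.014, Ooep in NT_6d against C_6d became 0.059, Ooep in NT_10d against NT_6d became -0.57, Tle6 in NT_10d against NT_6d became 0.27. With the replicate block, Nlrp2 in NT_10d against C_10d became -0.040, Ooep in NT_10d against NT_6d became -0.056, Tle6 in NT_10d against NT_6d became 0.034. With the low pair left out, Ooep in NT_6d against C_6d became 0.11, Ooep in NT_10d against NT_6d became -0.084. With 1 library left out, the ranges of those that changed sign were Nlrp5 in C_10d against Invivo -0.20 to 0.67, Nlrp2 in C_10d against Invivo -0.15 to 0.92, Nlrp5 in NT_10d against Invivo -0.32 to 0.64, Tle6 in NT_10d against Invivo -0.50 to 0.17, Nlrp2 in NT_10d against Invivo -0.12 to 0.92, Tle6 in C_10d against Invivo -0.18 to 0.59, Nlrp5 in NT_10d against C_10d -0.34 to 0.44, Ooep in NT_10d against C_10d -1.26 to 1.72, Padi6 in NT_10d against C_10d -0.45 to 0.29, Ooep in C_10d against C_6d -1.69 to 0.77, Nlrp2 in C_10d against C_6d -0.25 to 0.45, Tle6 in NT_10d against C_10d -0.79 to 0.053, Nlrp2 in NT_10d against C_10d -0.33 to 0.44, Khdc3 in the NT-4 difference -2.23 to 1.35, Tle6 in NT_10d against NT_6d -0.48 to 0.58, Khdc3 in NT_10d against C_10d -1.39 to 2.19, Ooep in NT_10d against NT_6d -1.03 to 1.003, Ooep in the NT-4 difference -0.72 to 2.25, Tle6 in NT_6d against C_6d -0.36 to 0.79, Ooep in NT_6d against C_6d -0.95 to 0.54. In the assumed pairs of replicates, a count made after these values were seen, the sign was the same in all 3 for Tle6 in NT_10d against C_10d and for Ooep in C_10d against C_6d.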
